A study of Rattus norvegicus with 24 samples.

Results

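The steroid and estrogen-related receptors described here are 7 nuclear receptor genes: the estrogen receptors Esr1 and Esr2, the progesterone receptor Pgr, the mineralocorticoid receptor Nr3c2, and the estrogen-related receptors Esrra, Esrrb and Esrrg. They were taken from the count table by exact gene symbol, ignoring case, and 7 of 7 were found, with 1 row each, among 32883 genes. The animals were Sprague-Dawley rats of 7 months, and messenger RNA from 4 tissues (thymus, spleen, liver and brain) was sequenced in 24 libraries. In each tissue, 3 libraries came from rats labelled SAM-exposed and 3 from sham-exposed rats, here SAM and Sham. PCBs (chlorinated biphenyls, industrial compounds that persist in tissue) are named as the exposure in the series title, and the labels give no dose, duration, sex or batch. Libraries are named by the animal number in their labels: SAM 1, 2, 3 and 5, and Sham 13 to 17. The labels do not tie a number to one rat across tissues, nor say how the animals were housed or bred, so the p-values measure only the spread between these libraries.

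Nuclear steroid receptors are transcription factors that sit with chaperones such as Hsp90 until a steroid binds, then pair up on DNA and recruit coactivators. Estrogen receptors bind estradiol, and the gene for the progesterone receptor is a classic estrogen-induced target in the uterus and in parts of the brain; Nr3c2 binds aldosterone and also glucocorticoids. The estrogen-related receptors bind no natural estrogen, work with the coactivator PGC-1alpha (Ppargc1a), and drive genes of mitochondrial fuel use.

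Library totals ran from 12.9 to 20.1 M counts, so that 1 CPM (counts-per-million) stands for 12.9 to 20.1 counts and a level far under 1 CPM is a matter of a few counts. The tissue labels matched their markers: the summed level of 8 hepatocyte genes was 169125 to 207628 CPM in liver and at most 558 CPM elsewhere. Several libraries stood apart from their group. In liver, 37 genes of the mitochondrial genome took 18.0% of the counts of SAM 1 and 5.77 to 8.18% in its 5 neighbours. In brain, 8 olfactory bulb markers summed to 575 CPM in SAM 1 and 466 CPM in SAM 2, against 35.5 to 41.1 CPM in the other 4, while 8 forebrain excitatory neuron markers summed to 1600 and 1928 CPM against 3268 to 3838 CPM. Brain SAM 3 had the highest erythroid sum (188 CPM, otherwise 56.4 to 80.5 CPM) and endothelial sum (347 CPM, otherwise 210 to 265 CPM). Its smooth muscle sum was 106 CPM, otherwise 62.5 to 71.6 CPM. Striatal neuron markers summed to 306 CPM in brain Sham 13, against 592 and 616 CPM in Sham 15 and 16, and to 289 to 322 CPM in SAM. In thymus, 6 adipocyte markers summed to 664 CPM in SAM 1 and 1011 CPM in Sham 15, against 45.4 to 181 CPM in the other 4. None of these markers was at 0 in its tissue.

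The first question was whether any receptor transcript differed between exposed and sham animals. After the low-count filter, 4 of the 7 genes could be tested in liver and in spleen, 5 in thymus and 6 in brain. With edgeR's quasi-likelihood test, 0 receptors passed an adjusted p of 0.05 in any tissue, as did 0 of all genes tested (0% of 12130 genes in liver, of 14530 in spleen, of 15036 in thymus and of 15126 in brain). By DESeq2 there was 1 receptor called, Pgr in thymus, and 0 in the other tissues. Over all genes the DESeq2 calls were 513 in brain, 102 in thymus, 7 in spleen and 2 in liver. DESeq2 filters genes differently from edgeR, and these are totals only, so no share of all genes stands beside any DESeq2 call below. At an unadjusted p under 0.05, edgeR listed 0 receptors in liver (2.70% of all genes), 1 in brain (Esrrb; 20.5%), 2 in thymus (Esr1 and Pgr; 6.13%) and 0 in spleen (4.11%). The 3 SAM and 3 Sham libraries did not overlap for 1 of 4 receptors in liver (10.8% of all genes), 2 of 6 in brain (23.8%), 1 of 5 in thymus (11.9%) and 1 of 4 in spleen (9.22%). The median log2 fold change over the receptors tested was -0.59 in thymus, -0.38 in liver, 0.17 in spleen and 0.01 in brain, beside medians of -0.00, 0.02, 0.00 and 0.01 over all genes.

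**Figure D1:**
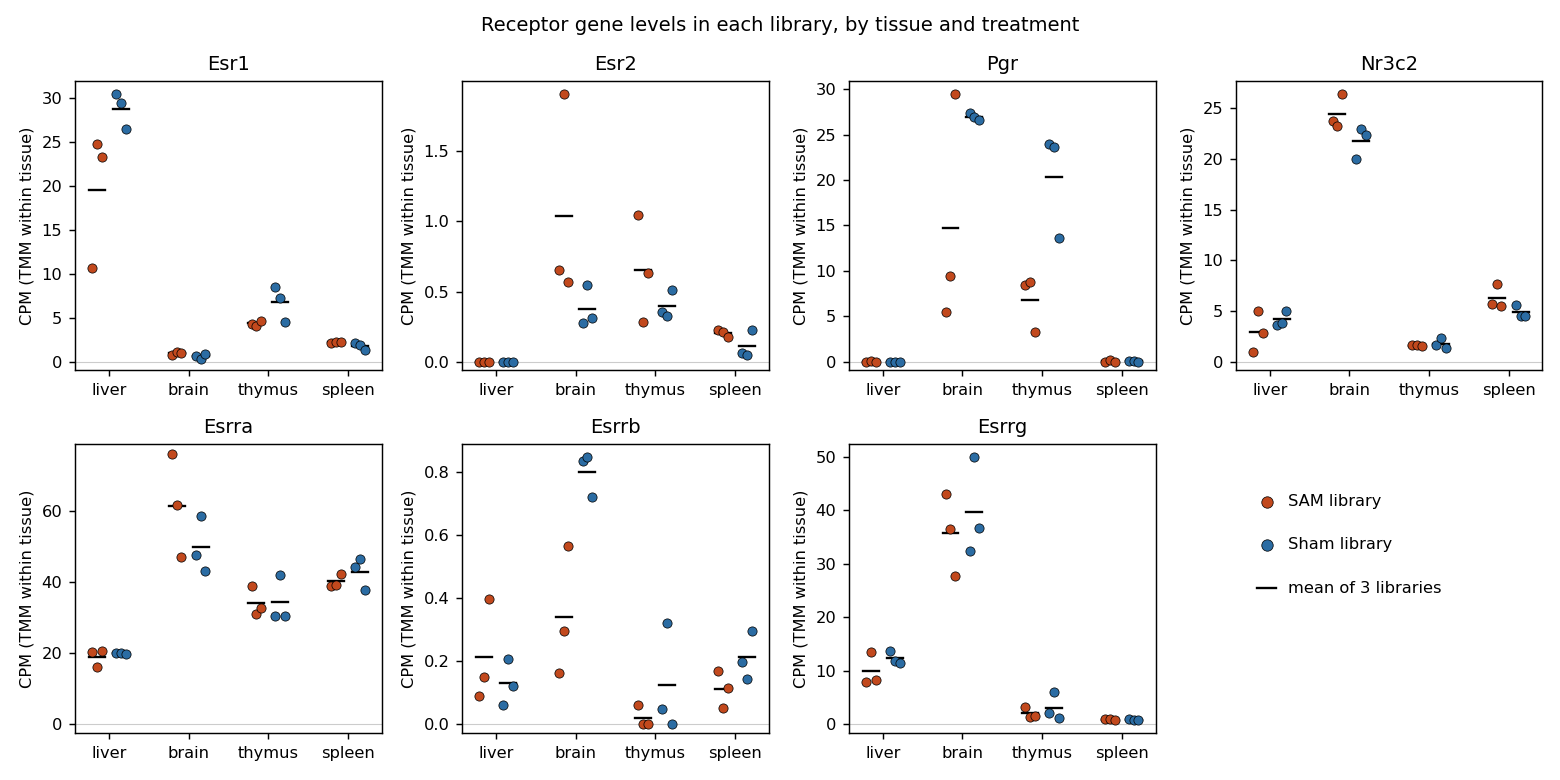
Level of each receptor gene in every library (vertical axis, CPM scaled by TMM within the tissue) by tissue (horizontal axis); red points are SAM libraries, blue points Sham libraries and black lines the means of 3. In thymus the 3 SAM points for Pgr lie at 3.23 to 8.81 CPM, below the 3 Sham points at 13.6 to 24.0 CPM, and in brain SAM 1 and SAM 2 lie apart from the other 4 libraries for Pgr.

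**Figure D2:**
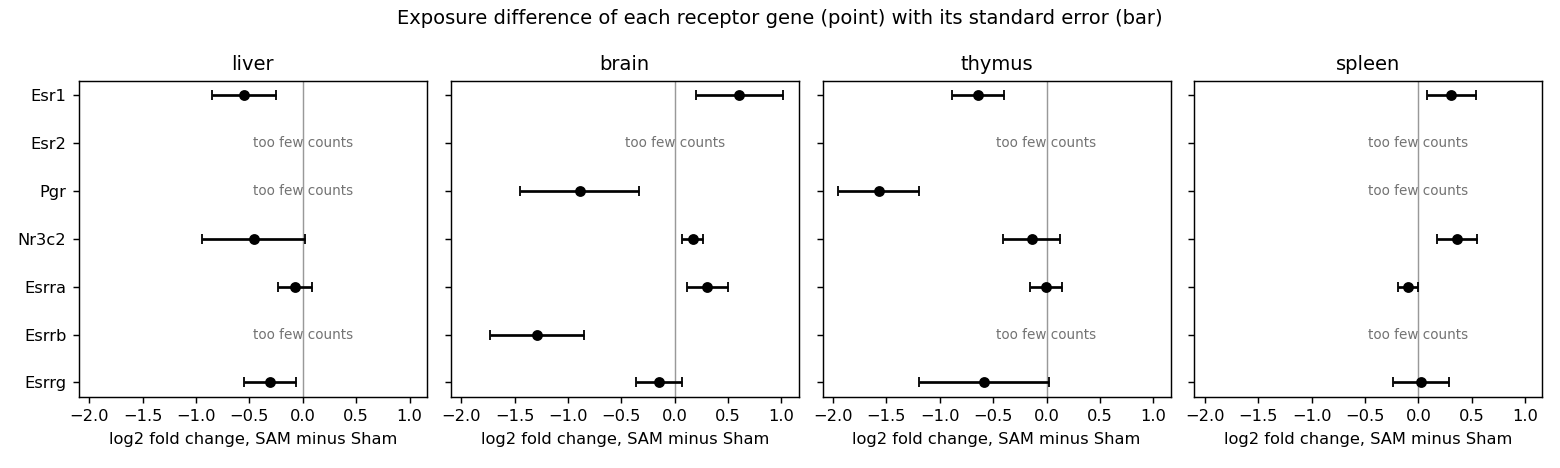
Log2 fold change, SAM minus Sham (horizontal axis), of each receptor gene with its standard error as a bar, by tissue; genes below the count filter are marked. Pgr in thymus (-1.57) and Esrrb in brain (-1.29) have the largest differences of the 19 values, and 0 of the 19 passed the edgeR threshold.

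Esr1 encodes estrogen receptor alpha, the main estrogen receptor of liver. In liver its level was 10.7, 24.9 and 23.3 CPM in SAM 1, 2 and 3 and 30.5, 29.5 and 26.5 CPM in Sham 13, 14 and 15. All 3 SAM libraries lay below all 3 Sham libraries (5.63% of all genes tested in liver did so), and SAM 1, the library with the high mitochondrial share, was the lowest. The means were 19.6 ± 7.76 and 28.8 ± 2.05 CPM (SD, n = 3 each), a log2 fold change of -0.55 ± 0.30 (SE; edgeR adjusted p = 0.802). Without SAM 1 the liver value was -0.26. With the mitochondrially encoded genes left out of the counts it was -0.55 (edgeR adjusted p = 0.803), a fit that bears on scaling only. Any other part of the mitochondrial share in the liver value was not tested.

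In thymus, Esr1 was at 4.31, 4.09 and 4.68 CPM in SAM 1, 3 and 5 and at 8.55, 7.32 and 4.57 CPM in Sham 14, 15 and 17. The SAM libraries were close together, and Sham 17 fell within their range while the other Sham libraries were higher. The log2 fold change was -0.64 ± 0.24 (edgeR unadjusted p = 0.0304, adjusted p = 0.780). In spleen, Esr1 was at 2.17, 2.24 and 2.26 CPM in SAM 1, 3 and 5 and at 2.11, 1.89 and 1.34 CPM in Sham 14, 15 and 17. Each SAM library was above each Sham library (4.47% of all genes tested in spleen), though SAM 1 and Sham 14 were nearly equal, and the log2 fold change was 0.31 ± 0.23 (edgeR adjusted p = 0.967). In brain Esr1 rested on 5 to 18 counts per library, with a log2 fold change of 0.61 ± 0.41 (edgeR adjusted p = 0.392) and overlapping groups.

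Esr2, estrogen receptor beta, was below the filter in every tissue. It had 0 counts in all 6 liver libraries. In brain it had 12, 32 and 7 counts in SAM 1, 2 and 3 and 5, 9 and 6 in Sham 13, 15 and 16, with SAM 2 far above the rest. Thymus libraries held 5 to 17 counts and spleen libraries 1 to 4. In the main edgeR fits by tissue Esr2 was thus not tested. In brain edgeR gave a log2 fold change of 1.48 with no low-count filter (edgeR adjusted p = 0.268). The fit over all 24 libraries gave 1.44 in brain (edgeR adjusted p = 0.152), and DESeq2, with its own filter, gave 1.47 (DESeq2 adjusted p = 0.227).

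Pgr encodes the progesterone receptor. Its thymus level was 8.44, 8.81 and 3.23 CPM in SAM 1, 3 and 5 and 24.0, 23.6 and 13.6 CPM in Sham 14, 15 and 17. All 3 SAM libraries lay below all 3 Sham libraries (6.96% of all genes tested in thymus did so), with SAM 5 the lowest of the SAM and Sham 17 the lowest of the Sham libraries. The means were 6.83 ± 3.12 and 20.4 ± 5.90 CPM (SD, n = 3 each). The log2 fold change was -1.57 ± 0.38 (edgeR unadjusted p = 0.0035, adjusted p = 0.454), the 116th lowest p of 15036 genes. Leaving out each library in turn gave -1.80 to -1.24, and leaving out SAM 1 and Sham 15 together, the libraries with high adipocyte markers, gave -1.63. DESeq2 gave -1.57 with an adjusted p of 0.000492.

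Thymic epithelial markers were low in the same libraries as Pgr. The 9 markers, among them the keratins Krt5 and Krt14 and the thymic epithelial regulator Foxn1, summed to 740, 915 and 874 CPM in SAM 1, 3 and 5 and to 1341, 1416 and 1279 CPM in Sham 14, 15 and 17. All 9 had a negative fold change (median -0.50), and none was at 0. For 7 of 9, all SAM libraries lay below every Sham library (6.96% of all genes tested in thymus). edgeR called 0 of the 9, with 7 at an unadjusted p under 0.05 (6.13% of all genes), and DESeq2 called 6. Pgr per 100 CPM of these markers was 1.14, 0.963 and 0.369 CPM in the SAM libraries and 1.79, 1.67 and 1.06 CPM in the Sham libraries. On that scale SAM 1 and Sham 17 overlapped, and SAM 5 remained the lowest. The part of the epithelial markers in the Pgr difference was not tested, and in bulk tissue fewer cells of a type and less RNA per cell cannot be told apart. Fibroblast markers (430 to 527 CPM in SAM, 363 to 483 CPM in Sham) and thymocyte markers (8212 to 9413 CPM in SAM, 7838 to 9000 CPM in Sham) overlapped between the groups. The sum of 5 cholangiocyte markers, of which Epcam is also an epithelial marker here, was 176 to 202 CPM in SAM and 293 to 320 CPM in Sham. All 5 had a negative fold change (median -0.64). Macrophage and B cell sums overlapped, though 7 of 7 and 6 of 7 of their markers were negative, beside 50.5% of all genes in thymus.

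**Figure D3:**
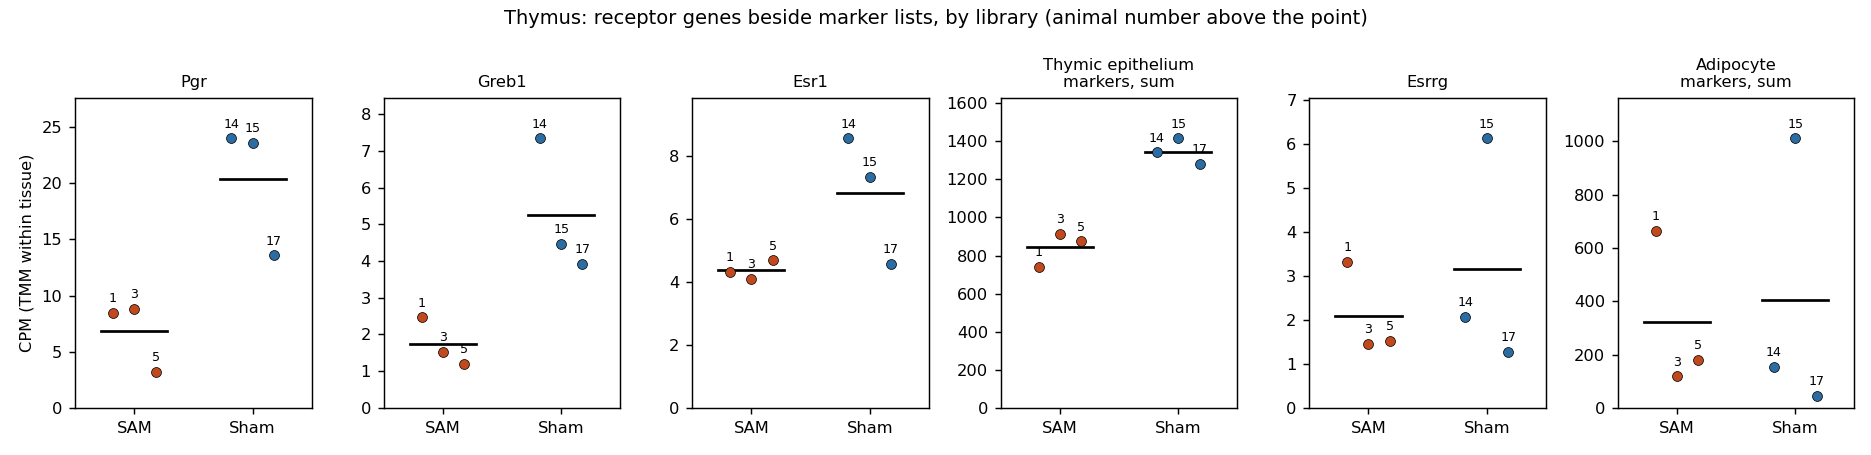
Thymus libraries by treatment (horizontal axis) with CPM, TMM-scaled within thymus, on the vertical axes; numbers are animal numbers and lines are means of 3. Pgr, Greb1 and the summed thymic epithelial markers are lower in all 3 SAM libraries than in all 3 Sham libraries, whereas Esrrg is highest in SAM 1 and Sham 15, the libraries with the highest adipocyte sums (664 and 1011 CPM).

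In brain, Pgr was at 5.44, 9.46 and 29.4 CPM in SAM 1, 2 and 3 and at 27.4, 26.9 and 26.6 CPM in Sham 13, 15 and 16. SAM 1 and SAM 2 were far below the Sham libraries and SAM 3 was above them. The log2 fold change was -0.89 ± 0.56 (edgeR adjusted p = 0.364). Without SAM 3 it was -1.87 (edgeR adjusted p = 0.000229), and without SAM 1 and SAM 2, which leaves SAM 3 alone against the Sham libraries, it was 0.13. Pgr per 100 CPM of forebrain excitatory neuron markers was 0.340, 0.490 and 0.766 CPM in SAM 1, 2 and 3 and 0.739 to 0.813 CPM in the Sham libraries. SAM 1 and SAM 2 were low on that scale as well, and SAM 3 lay inside the Sham range. All 8 of these markers had a negative fold change (median -0.94), and their part in the Pgr difference was not tested. Pgr was at or near 0 elsewhere: liver held 1 count in all (SAM 2), and spleen 0, 3 and 0 counts in SAM 1, 3 and 5 and 1, 1 and 0 in Sham 14, 15 and 17.

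The upstream sequence of Pgr is printed because Pgr had the largest exposure difference of the set, and that of Esrrb because it had the next largest. Both are the 250 bases before the RefSeq transcript start on assembly GRCr8, which is not the build of the counts. Capitals mark GGGCGG (the core of a GC box) and CCAAT, each searched on both strands, so that CCAAT appears as ATTGG where it lies on the other strand. The first window is on chr8:14354148-14354397, plus strand, and the second on chr6:111738412-111738661, plus strand.
Pgr: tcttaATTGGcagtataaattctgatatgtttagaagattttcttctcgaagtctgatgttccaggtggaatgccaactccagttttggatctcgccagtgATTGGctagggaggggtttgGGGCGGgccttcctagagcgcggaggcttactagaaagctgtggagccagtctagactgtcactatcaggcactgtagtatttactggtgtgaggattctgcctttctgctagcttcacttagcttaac
Esrrb: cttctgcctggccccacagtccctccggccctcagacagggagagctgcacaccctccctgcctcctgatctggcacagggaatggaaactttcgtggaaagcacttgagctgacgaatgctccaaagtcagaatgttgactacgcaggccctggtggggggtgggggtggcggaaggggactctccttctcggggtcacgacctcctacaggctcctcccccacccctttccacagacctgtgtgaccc

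The Pgr window holds both motifs and the Esrrb window neither. Over 33469 RefSeq windows of the same length, 30.5% hold GGGCGG and 34.0% hold CCAAT. The estrogen response element GGTCANNNTGACC, found in 0.0239% of all windows, was in none of the windows of the 6 receptors that have one. The same held for the estrogen-related receptor element TNAAGGTCA (1.04% of windows) and for the steroid response element GNACANNNTGTNC (0.373%). The shorter core AGGTCA, which TNAAGGTCA contains and which 14.1% of windows hold, was in 1 of the 4 Esrrg windows and in no other receptor window. Nr3c2 had no window in the table. A match is a description of letters and not a binding site.

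Nr3c2, the mineralocorticoid receptor, was tested in all 4 tissues. In brain its level was 23.8, 23.3 and 26.4 CPM in SAM 1, 2 and 3 and 20.04, 22.9 and 22.4 CPM in Sham 13, 15 and 16. Each SAM library was above each Sham library (11.6% of all genes tested in brain were), SAM 3 being the highest, and the log2 fold change was 0.17 ± 0.10 (edgeR adjusted p = 0.347). In spleen it was at 5.71, 7.67 and 5.50 CPM in SAM 1, 3 and 5 and at 5.61, 4.56 and 4.53 CPM in Sham 14, 15 and 17. SAM 3 was high, and Sham 14 exceeded SAM 5, so the groups overlapped at a log2 fold change of 0.36 ± 0.19 (edgeR adjusted p = 0.967). In liver the 3 SAM libraries spread from 1.01 CPM (SAM 1) to 4.99 CPM (SAM 2), against Sham values of 3.67 to 5.02 CPM; SAM 1 and SAM 3 (2.86 CPM) were below all Sham libraries and SAM 2 within their range. The liver log2 fold change was -0.46 ± 0.49, and -0.07 without SAM 1. In thymus the SAM libraries were at 1.52 to 1.66 CPM, inside the Sham range of 1.32 to 2.31 CPM, a log2 fold change of -0.14 ± 0.27 with overlapping groups.

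Esrra, estrogen-related receptor alpha, is the broadly expressed member of its subfamily. In brain it was at 75.8, 61.4 and 46.9 CPM in SAM 1, 2 and 3 and at 47.5, 58.5 and 43.2 CPM in Sham 13, 15 and 16. SAM 1 and SAM 2 were the highest libraries and SAM 3 lay among the Sham libraries. The log2 fold change was 0.31 ± 0.19 (edgeR adjusted p = 0.370), 0.46 without SAM 3 (edgeR adjusted p = 0.0291) and -0.08 without SAM 1 and SAM 2. In the other tissues it lay near 0: -0.07 ± 0.16 in liver, -0.01 ± 0.15 in thymus and -0.10 ± 0.09 in spleen (SE). The 3 Sham livers were at 19.8 to 20.1 CPM, and the SAM livers at 20.3, 16.2 and 20.6 CPM, with SAM 2 the lowest.

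Esrrb, estrogen-related receptor beta, passed the count filter only in brain. It had 3, 5 and 7 counts in SAM 1, 2 and 3 and 15, 14 and 14 in Sham 13, 15 and 16, or 0.163, 0.297 and 0.567 CPM against 0.837, 0.848 and 0.721 CPM. All 3 SAM libraries were below all 3 Sham libraries (12.2% of all genes tested in brain were), and SAM 3 was the closest to them. The log2 fold change was -1.29 ± 0.44 (edgeR unadjusted p = 0.0228, adjusted p = 0.222). Without SAM 3 it was -1.79 (edgeR adjusted p = 0.0181), and without SAM 1 and SAM 2 it was -0.49. Elsewhere Esrrb had 1 to 6 counts per library in liver, 1 to 4 in spleen and 0 to 6 in thymus, where 6 of the 8 counts came from Sham 15.

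Esrrg, estrogen-related receptor gamma, is found in tissues with a high oxidative demand. In thymus it was at 3.33, 1.46 and 1.52 CPM in SAM 1, 3 and 5 and at 2.08, 6.14 and 1.27 CPM in Sham 14, 15 and 17. Sham 15 and SAM 1 were the high libraries, as they were for adipocyte markers, and the groups overlapped. The thymus log2 fold change was -0.59 ± 0.61 and became 0.32 without Sham 15. With SAM 1 and Sham 15 both left out it was -0.17, and the part of adipocyte RNA was not tested. In liver Esrrg was at 7.95, 13.5 and 8.32 CPM in SAM 1, 2 and 3 and at 11.4 to 13.7 CPM in Sham, a log2 fold change of -0.31 ± 0.24 with SAM 2 inside the Sham range. The brain range was 27.7 to 43.0 CPM over the SAM libraries and 32.3 to 49.9 CPM over the Sham libraries (-0.15 ± 0.21). The spleen ranges were 0.752 to 1.01 and 0.825 to 0.990 CPM (0.02 ± 0.26).

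**Figure D4:**
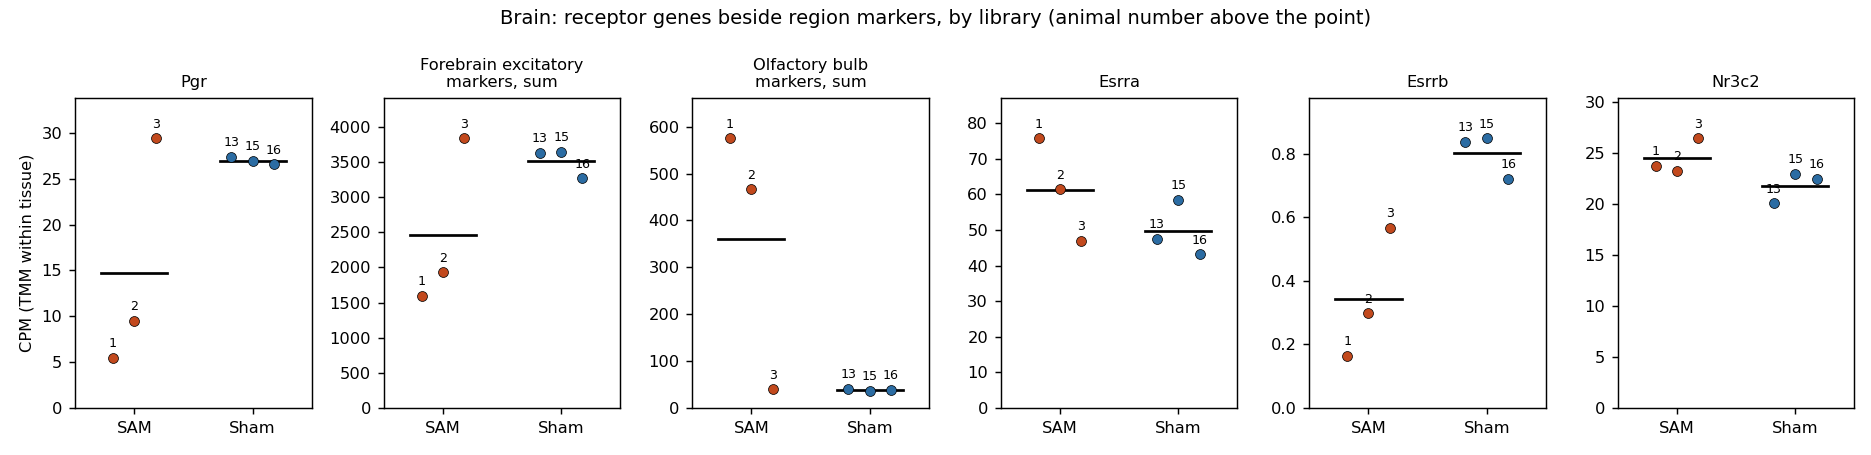
Brain libraries by treatment (horizontal axis) with CPM, TMM-scaled within brain, on the vertical axes; numbers are animal numbers and lines are means of 3. SAM 1 and SAM 2 are low for Pgr (5.44 and 9.46 CPM) and for the forebrain excitatory sum, and high for the olfactory bulb sum and Esrra, while SAM 3 lies near the Sham libraries except for Nr3c2 (26.4 CPM) and Esrrb (0.567 CPM).

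Brain gave a different count of receptors once SAM 3 was left out. Against 0 receptors with all libraries, 4 then passed in edgeR: Pgr, Esrra, Esrrb, and Esr2 at a log2 fold change of 1.74 (edgeR adjusted p = 0.0384). Over all genes 5896 passed in that fit (the fit with all libraries tested 15126), so calls were common there and not particular to the receptors. With SAM 1 and SAM 2 left out instead, 0 receptors and 1 gene passed, but that fit sets 1 SAM library against 3 Sham libraries and takes its spread from the Sham group alone, so the counts of these fits cannot be compared. SAM 1 and SAM 2, which remain in the first of these fits, are the libraries with olfactory bulb markers at 466 CPM or more in sum. They also had high hypothalamus sums (70.3 and 43.5 CPM, otherwise 5.33 to 7.86 CPM) and low cerebellum sums (85.8 and 95.5 CPM, otherwise 199 to 227 CPM). Oligodendrocyte markers summed to 4346 (SAM 3) to 5857 CPM in SAM and to 5858 to 6941 CPM in Sham. The part of these markers in the calls was not tested.

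Whether the exposure difference itself varied between tissues was tested with 3 interaction terms over all 24 libraries. The test called 0 of the 7 receptors, and 2 of 17623 genes (0.0113%). Only Esr1 was under 0.05 before adjustment (edgeR unadjusted p = 0.0406, adjusted p = 0.507). The adjusted p of the other receptors ran from 0.674 (Esrrb) to 0.972 (Esrrg). A lower Pgr in thymus and in brain, or a lower Esr1 in liver beside a higher one in spleen, was thus not shown to differ between tissues.

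The level of each receptor across tissues was described in the 12 Sham libraries, with all 6 pairs of tissues tested in 1 edgeR fit. Here the scaling matters: TMM factors were 0.430 to 0.457 in liver and 1.18 to 1.48 elsewhere, so that TMM puts liver levels above those by library total and the other tissues below them. The median difference over all genes, liver minus brain, was 0.01 on the log2 scale with TMM and -1.37 by library total; it moved from -0.21 to -1.91 against thymus and from -0.19 to -1.75 against spleen. It moved from -0.06 to -0.35 for brain minus thymus, and from 0.02 to 0.20 for thymus minus spleen. Tissue differences are common: 62.3% (thymus against spleen) to 82.5% (brain against thymus) of 17204 genes were called, with 81.4% for liver against brain, 77.3% for liver against thymus, 76.1% for liver against spleen and 82.4% for brain against spleen. Of 36 combinations of receptor and tissue pair, 28 were called, and Esr2 was below the filter. The pairs share libraries and are not independent.

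Esr1 was highest in liver, at 69.0 ± 4.34 CPM (SD, n = 3; 30.4 ± 2.41 CPM by library total). Thymus followed at 4.66 ± 1.39 CPM (6.80 ± 1.99), then spleen at 1.37 ± 0.305 CPM (1.78 ± 0.371) and brain at 0.504 ± 0.237 CPM (0.605 ± 0.291). All 6 pairs of tissues differed. The closest neighbours were brain and spleen, at a log2 difference of -1.42 ± 0.37 (edgeR adjusted p = 0.00282), which no longer passed without the libraries of Sham 15 (-1.07, edgeR adjusted p = 0.0543). Liver minus thymus was 3.89 ± 0.22, and the order of the 4 tissues was the same by library total.

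Pgr was a gene of brain and thymus. It stood at 22.0 ± 0.322 CPM in Sham brain (26.3 ± 0.390 by library total) and 13.9 ± 3.92 CPM in Sham thymus (20.3 ± 5.58). Brain exceeded thymus by 0.66 ± 0.20 on the log2 scale (edgeR adjusted p = 0.0102), a call lost by library total (0.37, edgeR adjusted p = 0.0959). Liver held 0 counts over the 3 Sham libraries. With 3 counts over the group taken in place of the 0, brain was 158-fold and thymus 99.7-fold higher with TMM. By library total the ratios were 430.3-fold and 332-fold. The choice of 3 sets these ratios, which leave out the counting error of brain and thymus. Spleen held 2 counts, so that brain was 704 times higher (95% exact interval 195 to 5819) and thymus 444 times (123 to 3673), intervals that cover counting error only.

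Nr3c2 was highest in brain, at 17.8 ± 1.26 CPM (21.3 ± 1.49 by library total), then liver at 10.02 ± 1.86 CPM (4.40 ± 0.740), spleen at 3.77 ± 0.462 CPM (4.89 ± 0.457) and thymus at 1.204 ± 0.313 CPM (1.76 ± 0.444). All 6 pairs were called with TMM. Liver against spleen was 1.41 ± 0.20 with TMM and -0.15 by library total (edgeR adjusted p = 0.455), so the order of those tissues depends on the scaling. Brain was the highest and thymus the lowest under both.

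Esrra had the flattest profile. Its Sham level was 47.9 ± 0.929 CPM in liver, 40.7 ± 6.51 CPM in brain, 33.0 ± 3.43 CPM in spleen and 23.4 ± 3.91 CPM in thymus. Liver and brain did not differ beyond their spread (0.24 ± 0.14, edgeR adjusted p = 0.127), and brain minus spleen was near the threshold (0.30 ± 0.13, edgeR adjusted p = 0.0526). Brain minus spleen passed with RLE scaling (0.47, edgeR adjusted p = 0.00608), with DESeq2 (0.47, DESeq2 adjusted p = 0.0035), over all 24 libraries (0.48, edgeR adjusted p = 0.000417) and without Sham 16 (0.39, edgeR adjusted p = 0.0217), and not by library total (0.18, edgeR adjusted p = 0.221). By library total liver was instead the lowest tissue, at 21.1 ± 0.355 CPM against 34.2 to 48.5 CPM elsewhere, and its differences were -1.205 from brain, -0.70 from thymus and -1.03 from spleen (edgeR adjusted p from 1.28e-06 to 0.000239).

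Esrrg was a gene of brain and liver, at 32.4 ± 7.52 CPM and 29.6 ± 2.28 CPM, which did not differ with TMM (liver minus brain -0.13 ± 0.33, edgeR adjusted p = 0.720). By library total brain was the higher, at 38.7 ± 8.52 CPM against 13.02 ± 1.42 CPM in liver (-1.57, edgeR adjusted p = 0.000598). Thymus held 2.13 ± 1.71 CPM (3.11 ± 2.47 by library total) and spleen 0.694 ± 0.0622 CPM. Thymus minus spleen was 1.62 ± 0.51 (edgeR adjusted p = 0.0141), and 0.67 without the libraries of Sham 15 (edgeR adjusted p = 0.102). Liver minus thymus was 3.79 ± 0.38 with TMM and 2.06 by library total, and passed under both.

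Esrrb and Esr2 had few counts in every tissue. Esrrb reached 0.656 ± 0.0579 CPM in Sham brain (43 counts in all), which exceeded thymus by 2.89 ± 0.61 and spleen by 2.01 ± 0.59 (edgeR adjusted p = 0.000662 and 0.00626). The remaining pairs of Esrrb rested on 7 to 10 counts outside brain and did not pass with TMM. By library total Esrrb liver minus brain passed (-2.40, edgeR adjusted p = 0.00267). Without the libraries of Sham 15, liver minus thymus (3.85, edgeR adjusted p = 0.0117) and thymus minus spleen (-3.02, edgeR adjusted p = 0.0343) passed. Over all 24 libraries, liver minus thymus (3.29, edgeR adjusted p = 0.00022) and liver minus spleen (1.75, edgeR adjusted p = 0.0108) passed. Esr2 had 20 counts in Sham brain, 23 in thymus, 5 in spleen and 0 in liver. With 3 counts taken in place of the 0 of the liver group, Esr2 was 2.18-fold higher in brain and 1.94-fold higher in thymus with TMM. These ratios leave out the counting error of the 20 and 23 counts.

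**Figure D5:**
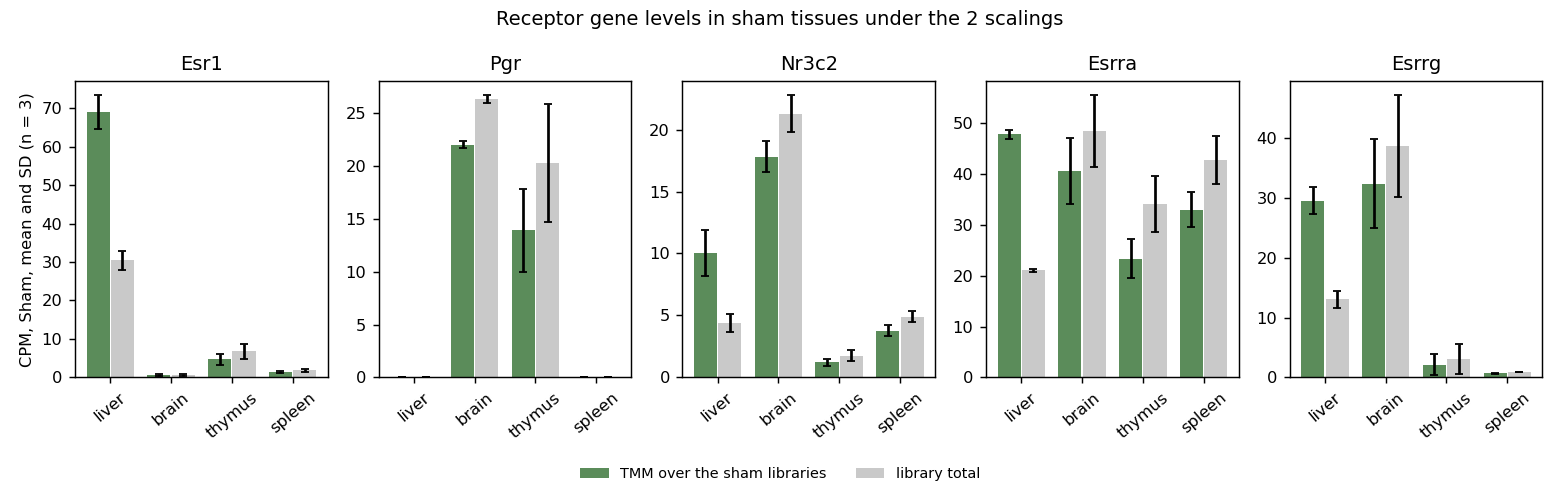
Mean level of 5 receptor genes in Sham tissues (vertical axis, CPM from 0; bars are means and error bars SDs of 3 libraries), with TMM over the 12 Sham libraries in green and by library total in grey. Esr1 is highest in liver (69.0 and 30.4 CPM) and Pgr in brain (22.0 and 26.3 CPM) under both scalings, while the place of liver for Esrra moves from the highest (47.9 CPM) to the lowest (21.1 CPM).

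By the correlation of log2 CPM over the 24 libraries, the genes most like Esr1 among 16443 candidates were Snai2 (Pearson r = 0.988), Ttc13 (0.987) and Apool (0.985). Those most like Pgr were Wdr7 (0.980), Fezf2 (0.978) and Mgat5b (0.975). Those most like Nr3c2 were Atxn1 (0.983), Gas2l1 (0.978) and Washc2c (0.977). Esrra had Camk1 (0.938), Ubl3 (0.936) and Abcb6 (0.933), and Esrrg had Aldh5a1 (0.987), Abcc8 (0.985) and Ptprd (0.984). These values describe mainly the difference between 4 tissues, which the libraries share, and carry no test; Esr2 and Esrrb stayed below a mean of 1 CPM in every tissue and were left out.

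Genes around the receptors were described by lists of ligand enzymes, chaperones, coregulators and responsive genes. edgeR called 0 genes of any of the 7 lists in any tissue. DESeq2 called 0 in liver and spleen, 2 in brain (the chaperone Dnaja1, lower, and the muscle-type carnitine transferase Cpt1b, higher) and 3 in thymus (Greb1 and the sodium channel subunits Scnn1b and Scnn1g, all lower). These counts were not set against a DESeq2 share of all genes, so whether they exceed it is not shown. Individual genes named below were chosen from fixed examples after their values were seen, and the DESeq2 genes by their call.

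Of the estrogen-responsive list, 19 of 24 genes were tested in thymus, with 8 positive and 11 negative fold changes, 2 at an unadjusted p under 0.05 (both negative; 6.13% of all genes) and a median of -0.09. Greb1, an early estrogen-induced gene and estrogen receptor cofactor, was at 2.47, 1.51 and 1.202 CPM in SAM 1, 3 and 5 and at 7.34, 4.47 and 3.91 CPM in Sham 14, 15 and 17. The 3 SAM libraries were below all Sham libraries (6.96% of all genes tested in thymus), as for Pgr and for the summed thymic epithelial markers. The part of those markers in the Greb1 difference was not tested. Greb1 had a log2 fold change of -1.60 ± 0.35 (edgeR adjusted p = 0.411; DESeq2 adjusted p = 0.00644). The chemokine gene Cxcl12 was at 89.1, 105 and 112 CPM against 123, 158 and 123 CPM in the same libraries (-0.40 ± 0.12). Outside thymus, Greb1 had log2 fold changes of 0.47 ± 0.29 in brain and -0.36 ± 0.27 in spleen, with overlapping groups. In the other tissues the list held 9 positive and 7 negative values in liver (median 0.09), 7 and 10 in brain (-0.03) and 6 and 11 in spleen (-0.12), with 1 in each at an unadjusted p under 0.05 (2.70%, 20.5% and 4.11% of all genes).

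In brain the coactivator gene Ncoa3 was at 59.7, 58.5 and 47.3 CPM in SAM 1, 2 and 3 and at 40.6 to 41.6 CPM in Sham. Each SAM library was above each Sham library (11.6% of all genes tested in brain were), at 0.42 ± 0.10 (edgeR adjusted p = 0.221). Ncoa1, of the same list, was lower in brain without overlap (12.2% of all genes tested were), at -0.20 ± 0.10 (edgeR adjusted p = 0.301). Of 20 coregulators tested, 14 were positive in brain, 6 in liver, 13 in thymus and 12 in spleen, with medians of 0.13, -0.14, 0.02 and 0.06. Without overlap, 3 were higher and 2 lower in brain (23.8% of all genes in either direction), and 6 higher and 0 lower in spleen (9.22%). In liver 1 was higher and 0 lower (10.8%), and in thymus 1 was higher and 1 lower (11.9%).

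The 15 chaperone genes tested had mostly negative fold changes in all 4 tissues: 12 were negative in liver (median -0.31), 13 in brain (-0.12), 13 in thymus (-0.23) and all 15 in spleen (-0.29). At an unadjusted p under 0.05 there were 3 in liver and 2 in brain, all negative, and 0 in thymus and spleen. Over all genes, 47.8 to 50.5% were negative, and 2.70% in liver and 20.5% in brain were at that p, so that the 2 of 15 in brain were no more than the share of all genes. Hsp90ab1, the constitutive Hsp90 gene, had log2 fold changes from -0.33 (liver) to -0.16 (thymus) (edgeR adjusted p from 0.268 to 0.967), without overlap except in thymus. Of all genes, 5.63% in liver, 12.2% in brain and 4.74% in spleen were lower without overlap. Sham 14 was the highest library in liver (1049 CPM), thymus (2868 CPM) and spleen (3148 CPM), and spleen SAM 3 (2060 CPM) was close to Sham 17 (2073 CPM). Leaving out 1 library gave -0.38 to -0.049 in spleen and -0.27 to 0.060 in thymus.

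Of the mineralocorticoid-responsive list, 13 of 18 genes were negative in thymus (median -0.12, 4 of them at an unadjusted p under 0.05), 8 of 14 in liver (median -0.10), 9 of 17 in brain (-0.19) and 8 of 16 in spleen (-0.01). At an unadjusted p under 0.05 there were 1 in liver and 1 in spleen, both negative, and 2 in brain, 1 of each sign, against 6.13%, 2.70%, 4.11% and 20.5% of all genes in thymus, liver, spleen and brain. The positive one in brain was the sodium channel subunit Scnn1a, with means of 1.36 ± 0.476 (SAM) and 0.604 ± 0.174 CPM (Sham; SD over 3 libraries; log2 fold change 1.17 ± 0.37, edgeR adjusted p = 0.221). In liver Scnn1a had a log2 fold change of 0.64 ± 0.31 (edgeR adjusted p = 0.802). In both tissues each SAM library was above each Sham library. Of all genes tested, 11.6% were so in brain, and 10.8% in liver did not overlap in either direction. In liver SAM 2 (1.61 CPM) and Sham 13 (1.58 CPM) were nearly equal, and the brain libraries held only 7 to 31 counts. Scnn1a was at -0.75 ± 0.37 in thymus and 0.48 ± 0.26 in spleen, with overlapping groups. Tsc22d3, a glucocorticoid-induced leucine zipper gene, was at 84.6, 97.8 and 102 CPM in spleen SAM 1, 3 and 5 and at 167, 106 and 147 CPM in Sham 14, 15 and 17. All 3 SAM libraries were the lower ones (4.74% of all genes tested in spleen; -0.56 ± 0.16, edgeR adjusted p = 0.967), but SAM 5 and Sham 15 were close. Sgk1, a kinase gene induced through this receptor, had log2 fold changes of -0.19 in brain and spleen, -0.12 in thymus and 0.02 in liver, with overlapping groups.

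Of the estrogen-related receptor targets, a list that includes Esrra itself, 20 of 23 tested were negative in thymus (median -0.12), 16 of 21 in spleen (-0.03), 15 of 23 in brain (-0.02) and 9 of 21 in liver (0.03). At an unadjusted p under 0.05 there were 0 in thymus, 1 in spleen, 4 in brain and 0 in liver, where all genes gave 6.13%, 4.11%, 20.5% and 2.70%. The share of all genes with a negative value was 50.5% in thymus, 49.2% in spleen, 48.6% in brain and 47.8% in liver. In thymus, Pdk4, a brake on pyruvate oxidation, was high in SAM 1 (30.8 CPM) and Sham 15 (73.5 CPM) and at 2.13 to 5.16 CPM in the other 4, the pattern also seen for Esrrg. The part of adipocyte RNA in these values was not tested. In spleen Pdk4 was at 2.74, 2.34 and 2.02 CPM in SAM 1, 3 and 5 and at 6.47, 3.30 and 4.53 CPM in Sham 14, 15 and 17. The spleen groups did not overlap for Pdk4 (4.74% of all genes tested were lower without overlap), at -0.996 ± 0.28 (edgeR adjusted p = 0.967). Ppargc1a was at 47.1, 47.1 and 26.5 CPM in brain SAM 1, 2 and 3 and at 26.4 to 31.6 CPM in Sham, high in the same libraries as Esrra.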

How the data were processed

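The labels' protocols name an RNeasy kit for the RNA and a stranded TruSeq mRNA kit for the libraries. STAR 2.2.1 and build rn6 appear, without a stated role, per the submitters' processing notes. The counting program, strand setting and annotation were not given in the sources used here, and overlapping or antisense genes cannot be told apart. The authors deposited whole-number counts per gene, not normalized. All column names begin with SAM, and tissue plus animal number gave each column its sample.

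SAM was compared with Sham in each tissue with edgeR 4.0.16 (filterByExpr with a minimum count of 10, TMM, quasi-likelihood test, two-sided, Benjamini-Hochberg over all genes tested, 0.05). A standard error is the log2 fold change divided by the root of its F, an approximation. CPM is TMM-scaled within the tissue, or over the Sham libraries for levels across tissues. DESeq2 1.42.0, other scalings and left-out libraries were alternatives, and the code was tested on simulated counts. Levels were not compared between genes, since no lengths were used. Upstream sequences are from RefSeq (GRCr8): 6 of 7 receptors matched, Esrrg with 4 windows.

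The members and lists were chosen with earlier results of these data known. All 7 members are named whatever their p, list genes only from fixed examples, with stated exceptions, and for each member with a mean of at least 1 CPM in a tissue the 3 most correlated genes (prior count 2). Of the list genes, 1 is not reported here.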

Additional observations from a re-analysis of the deposited data

How the results depend on the processing

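The receptor calls kept to 0 in liver and spleen under every alternative, and for the difference between tissues under all 15, the replicate block (the animal number) included, which also gave 0. In thymus DESeq2 gave 1, and in brain leaving out 1 library gave 0 to 4 (4 without SAM 3). Counts over all genes moved more. In liver they were 1 with RLE scaling, 2 with DESeq2, 1 with no low-count filter and 3 in 1 fit over 24 libraries, and 0 to 1 leaving out 1 library. In brain they were 513 with DESeq2, 579 in 1 fit, 1 without SAM 1 and SAM 2, and 0 to 5896 leaving out 1. In thymus they were 102 with DESeq2, 3 with no filter and 3 in 1 fit, and in spleen 7 with DESeq2 and 0 to 1 leaving out 1 library. The causes were not tested.

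Of 239 log2 fold changes of receptors under alternatives, 219 kept their direction and side of the threshold, 16 reversed and 4 newly passed; of 425 for list genes the numbers were 396, 22 and 7. By library total, Sgk1 (-0.11) and Pdk4 (-0.046) reversed in liver. Without brain SAM 1 and SAM 2, a fit with SAM 3 as the lone SAM library, assumed to vary like the Sham libraries, Pgr (0.13), Esrra (-0.082), Greb1 (-0.17), Tsc22d3 (0.071), Ppargc1a (-0.16) and Pdk4 (-0.50) reversed. In thymus Esrra reversed in 1 fit (0.0022), and Nr3c2 (0.072) and Esrra (0.060) without SAM 1 and Sham 15. Leaving out 1 library gave, for values that reversed: in liver, Esrra -0.13 to 0.032, Sgk1 -0.16 to 0.24, Tsc22d3 -0.49 to 0.17, Ppargc1a -0.64 to 0.052, Pdk4 -0.41 to 0.35 and Ncoa3 -0.89 to 0.13; in brain, Esrrg -0.30 to 0.057 and Cxcl12 -0.30 to 0.20; in thymus, Nr3c2 -0.31 to 0.10, Esrra -0.11 to 0.16, Esrrg -1.08 to 0.32, Ppargc1a -1.78 to 0.77, Pdk4 -3.06 to 1.43 and Hsp90ab1 -0.27 to 0.060; in spleen, Esrrg -0.059 to 0.14.

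Between Sham tissues, the 28 called combinations became 27 with the replicate block, where Pgr brain minus thymus (0.49, edgeR adjusted p = 0.116) and Esrrb brain minus spleen (2.03, edgeR adjusted p = 0.0818) no longer passed and Esrra brain minus spleen (0.34, edgeR adjusted p = 0.0475) newly passed. Of 396 such differences under alternatives, 370 kept their direction and side of the threshold. Among the Sham libraries, deviations of same-numbered libraries correlated at a median of 0.05 over 11 pairs, with 4 over 0.1 and a highest value of 0.20. Over 43 pairs of other numbers the median was -0.02, with 2 over 0.1 and a highest value of 0.14. These values do not settle whether equal numbers mark the same rat. The main fit did not take the numbers as pairs and treated the Sham libraries as independent, which would not hold if they do. SAM and Sham share no numbers within a tissue, so no paired analysis was possible there. By library total, reversed differences were Esrra liver minus brain (-1.205), liver minus thymus (-0.70) and liver minus spleen (-1.03), Nr3c2 liver minus spleen (-0.15) and Esrrb liver minus spleen (-0.51). Leaving out 1 animal number gave -0.035 to 0.37 for Esrra and -0.38 to 0.12 for Esrrg, liver minus brain. Scaling by library total, the thymus fit without SAM 1 and Sham 15, and the fits of the difference between tissues without brain SAM 1 and SAM 2 or liver SAM 1 were added after the data were seen. Depth limits Esr2, Esrrb and spleen Pgr, where a few counts decide the value.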
